A study of Rattus norvegicus with 2 samples.

Results

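Radial glia are the neural stem cells of the embryonic cortex, and their fate depends on Notch signalling between neighbouring cells. A cell that presents a Delta ligand such as Dll1 activates the receptor Notch1 on the next cell, the freed intracellular part of the receptor joins the DNA-binding protein Rbpj, and the repressor genes Hes1 and Hes5 are transcribed and hold back neuronal differentiation. Here 10 genes of this system were followed in mRNA from cultured rat cortical cells with and without an RNAi plasmid against PIWIL1, a member of the PIWI family of small-RNA-binding proteins. They were the transcription factors Sox2 and Pax6, the intermediate filament genes Nes and Vim, the lipid-binding protein gene Fabp7, the glutamate transporter gene Slc1a3, the Notch effectors Hes1 and Hes5, the receptor gene Notch1 and the ligand gene Dll1. The genes were taken by name, and all 10 were found among the 9894 genes listed in either library. The files list them under the RefSeq transcripts NM_001109181 (Sox2), NM_013001 (Pax6), NM_012987 (Nes), NM_031140 (Vim), NM_032063 (Dll1), NM_001105721 (Notch1), NM_024360 (Hes1), NM_024383 (Hes5) and, for Fabp7 and Slc1a3, NM_030832 and NM_019225.

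The cells came from the cortex of Sprague-Dawley rat embryos at embryonic day 16, were dissociated, electroporated, and collected after 48 h of culture. There were 2 libraries, 1 from cells given the control plasmid, which carries a Scramble sequence in the study's methods, and 1 from cells given the PIWIL1 RNAi plasmid. The comparison was made to look for genes that depend on PIWIL1. No sort for electroporated cells was described, so each library reads the whole dish, and PIWIL1 itself had no value in either library, which leaves the knockdown unchecked here. With 1 library per group there was no replicate spread, so each test below sets 1 library against the other rather than condition against condition, and each interval covers counting error only.

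Each value counts 21-base tags that begin at a CATG site of a transcript. The control library held 1947600 tag copies on 9496 genes and the RNAi library 1865913 copies on 9297 genes, and TPM is tag copies per 1000000 clean tags, of which the libraries held 3386865 and 3303360 as worked out from copies and TPM. A gene absent from a library is limited to about 3 copies there, which is 0.886 TPM in the control library and 0.908 TPM in the RNAi library, and tags with 1 copy were not listed. TPM has no correction for transcript length or number of CATG sites, so levels are compared between libraries and not between genes. A gene was called when its p by Fisher's exact test, adjusted over all genes by the Benjamini-Hochberg procedure, was 0.05 or less and its absolute log2 ratio of TPM (RNAi over control) was 0.58 or more. The quartiles of the log2 ratio over all genes were -0.44 and 0.23, with a median of -0.09.

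The tag sequences that carry most of the copies of these genes are given first, since every level below is a count of such tags. They run 5′ to 3′ and the capitals mark the last 2 bases, which several tags of a gene can share. Sites are numbered from the 3′ end of the transcript, as in the deposited files. The 2 Vim tags are the ones on which the Vim result turns.
Vim site 1: catgaaggaagagatggctCG
Vim site 2: catgtccagatcgatgtggAC
Nes site 1: catggtatttgtcctggagAG
Nes site 2: catggtcccgggggtaggaGA
Sox2 site 1: catgtatatatttgaactaAT
Pax6 site 1: catggaacaacatacactaGA
Fabp7 site 1: catgtgcagaagtgggatgGC
Slc1a3 site 1: catgcgtataaaggttaacAC
Hes1 site 1: catgcactgcatttgtataTA
Hes5 site 2: catggccccaagtaccgtgGC

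Of the 10 genes, 8 had a lower TPM in the RNAi library and 2, Vim and Dll1, a higher one, and none was called in either direction. Among the 8899 genes listed in both libraries, 5041 had a lower TPM in the RNAi library and 3851 a higher one. Over all genes 5.97% were called lower and 2.96% higher, 8.93% in all. Taken without the ratio threshold, Nes and Vim had a Benjamini-Hochberg adjusted p at or under 0.05 in Fisher's exact test. The share of all genes at that level was not counted. An unadjusted p under 0.05 in that test was found for 3 of the 10 (Nes, Vim and Hes1) and for 26.5% of all genes. The edgeR exact test gave no call among the 10 at any of 3 assumed values of the biological coefficient of variation, 0.1, 0.2 and 0.4. The median log2 ratio of the 10 was -0.28, against -0.09 over all genes. The 9 genes other than Vim summed to 1079 copies in the control library and 840 in the RNAi library, 319 against 254 TPM, a log2 ratio of -0.33. With Vim included the sum went the other way, from 1108 to 1382 TPM.

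**Figure D1:**
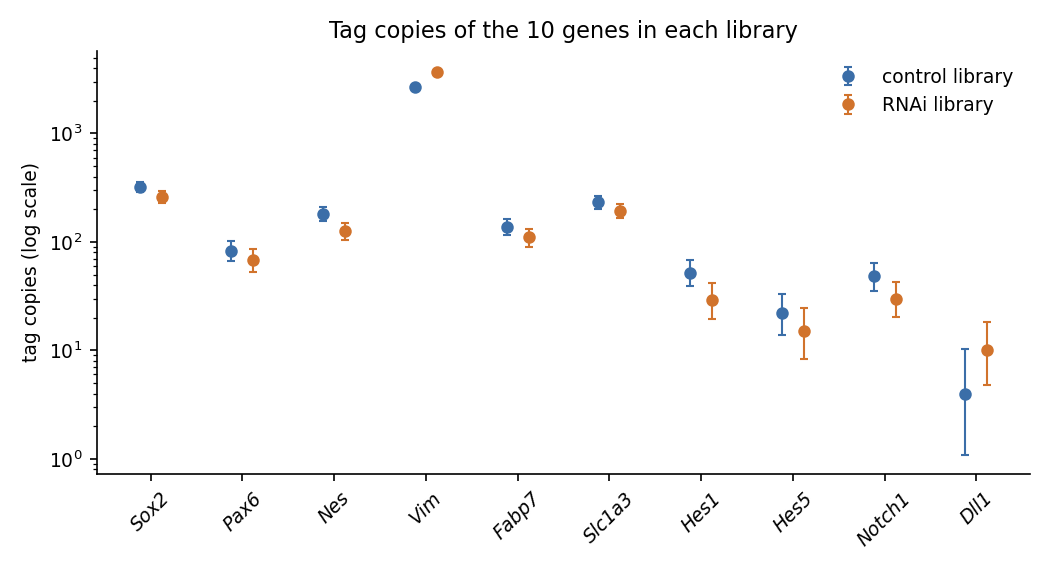
Tag copies of the 10 genes on a log axis, with the control library in blue, the RNAi library in orange and bars for the exact Poisson 95% interval of each count. The bars of the 2 libraries are apart for Vim, 2674 against 3724 copies, and for Nes, 181 against 125 copies, and the counts run down to 4 and 10 copies for Dll1. Genes with bars apart were not counted over all genes, of which 26.5% had an unadjusted p under 0.05 in Fisher's exact test.

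Sox2, a transcription factor that keeps neural stem cells undifferentiated, had 320 copies (94.5 TPM) in the control library and 260 copies (78.7 TPM) in the RNAi library. The log2 ratio was -0.26, with a 95% interval of -0.51 to -0.02, and the adjusted p was 0.191 (Fisher's exact test, Benjamini-Hochberg). Its whole interval lay below 0 and above the threshold of -0.58, and it held the median of all genes, -0.09. Sox2 was thus slightly lower in the RNAi library without passing the test. The log2 ratio was nearer 0 with TMM factors (-0.17), DESeq2 size factors (-0.18) and a correction of copies by the last bases of the tag (-0.05). Sox2 had 5 tags of 20 copies or more, and 4 of them were lower in the RNAi library: the site 1 tag printed above went from 195 to 169 copies and the site 2 tag from 43 to 21. The tag that went the other way, with 24 and 34 copies at site 8, was listed out of the alphabetical order of the gene's other tags, and without tags listed so the log2 ratio of Sox2 was -0.35.

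Pax6, which patterns the dorsal cortex and is carried by its radial glia, had 83 copies (24.5 TPM) in the control library and 68 copies (20.6 TPM) in the RNAi library, a log2 ratio of -0.25 with an interval of -0.74 to 0.23 and an adjusted p of 0.636 (Fisher's exact test, Benjamini-Hochberg). The site 1 tag of Pax6, with 60 and 58 copies, was nearly level between the libraries. At site 4 there were 14 and 7 copies. By the site 1 tag alone the log2 ratio was -0.01, and with the site 1 tags left out of every gene it was -1.68. The interval of Pax6 holds both no difference and a loss past the threshold.

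Nes encodes nestin, the intermediate filament protein of neural stem cells. It had 181 copies (53.4 TPM) in the control library and 125 copies (37.8 TPM) in the RNAi library. The log2 ratio was -0.50, with an interval of -0.84 to -0.16, and the adjusted p was 0.0336 (Fisher's exact test, Benjamini-Hochberg). Nes therefore passed the p threshold and stayed short of the ratio threshold. Its tags were not alike: the site 1 tag had 48 and 47 copies, the site 2 tag 59 and 26, the site 3 tag 22 and 23, and the site 5 tag 21 and 9. The lower count of Nes in the RNAi library thus lay at sites 2 and 5, with log2 ratios of -1.15 and -1.19, while sites 1 and 3 were nearly level. By the site 1 tag alone the log2 ratio was 0.01. With the site 1 tags left out of every gene it was -0.73, with an adjusted p of 0.0341 (Fisher's exact test, Benjamini-Hochberg), and Nes was then called lower. Over all alternatives its adjusted p ran from 0.0214 to 1, the latter by the site 1 tag alone and with an assumed coefficient of variation of 0.2 or more. What sets the sites apart was not tested.

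Vim encodes vimentin, the other main intermediate filament protein of radial glia, which fibroblasts and endothelial cells also make. It had the most copies of the 10 genes, 2674 (789.5 TPM) in the control library and 3724 (1127 TPM) in the RNAi library. The ratio was 1.43 and the log2 ratio 0.51, with an interval of 0.44 to 0.59. The adjusted p was 1.63e-47 (Fisher's exact test, Benjamini-Hochberg), yet the ratio lay under the threshold. With TMM factors (0.61) or DESeq2 size factors (0.60) in place of the clean-tag totals, Vim passed both and was called higher.

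Nearly all of the added Vim copies came from 1 tag. The site 1 tag printed above had 6 copies (1.77 TPM) in the control library and 1027 copies (311 TPM) in the RNAi library, a log2 ratio of 7.46 with an interval of 6.33 to 8.90. The site 2 tag, which carried most of the gene in both libraries, had 2234 and 2280 copies, a log2 ratio of 0.07 with an interval of -0.02 to 0.15. Site 1 as a whole therefore went from 0.299% to 27.8% of the Vim copies while site 2 went from 84.3% to 61.8%. Sites 3, 4 and 5 had 221 and 190, 167 and 162, and 23 and 34 copies. Sites 2 to 5 together had 2666 copies in the control library and 2689 in the RNAi library, a log2 ratio of 0.05 with an interval of -0.03 to 0.13. Away from site 1, then, the TPM of Vim differed between the libraries by no more than its counting error. With the site 1 tags left out of every gene, the adjusted p of Vim against the copies that remained was 0.00506 (Fisher's exact test, Benjamini-Hochberg). That test used the copies left on genes, while the log2 ratio of 0.05 is scaled by clean tags. The p therefore does not test that ratio.

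**Figure D2:**
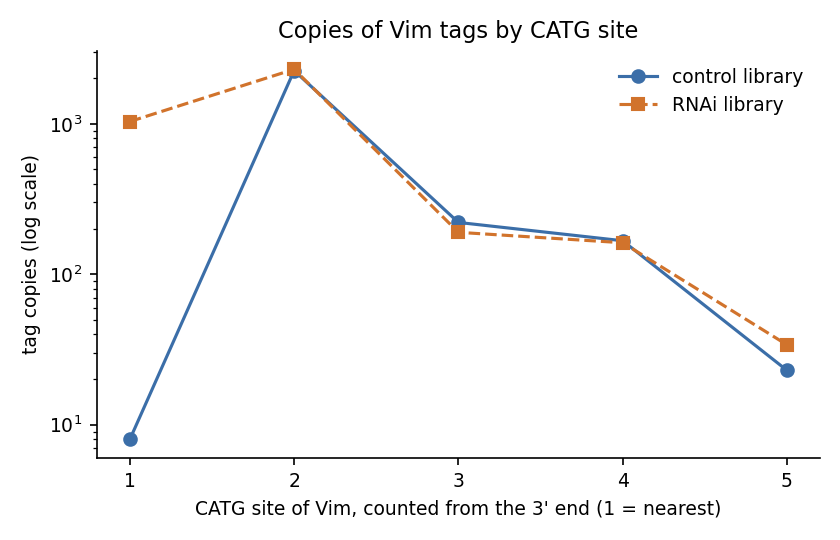
Tag copies of Vim at each of its 5 listed CATG sites, on a log axis, with site 1 nearest the 3′ end; circles and the solid line are the control library, squares and the dashed line the RNAi library. The libraries part at site 1, with 8 and 1035 copies, and run together at site 2, with 2255 and 2303 copies.

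A change of this size was rare among tags. Among the 16021 tags that reached 20 copies over both libraries, the Vim site 1 tag had the second largest log2 ratio (0.5 copies added), and it had the largest among the 3043 that reached 200 copies, of which 2 reached a log2 ratio of 3. The share of copies at site 1 had a median of 64.6% in the control library and 66.1% in the RNAi library over the 2952 genes with at least 100 copies in each. Vim gained 27.5 percentage points at that site, and 12 of those genes, Vim included, gained as much or more. Tags that differ from the site 1 tag by 1 base were also listed under Vim, 1 such tag with 2 copies in the control library and 3 with 8 copies in the RNAi library. The sequences of the transcripts were not used here, and the origin of the site 1 tag was not tested. No tag of any of the 10 genes ended in 8 or more A.

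Fabp7 encodes a fatty acid-binding protein of radial glia and Slc1a3 the glutamate transporter GLAST. Fabp7 had 138 copies (40.8 TPM) in the control library and 110 copies (33.3 TPM) in the RNAi library, a log2 ratio of -0.29 with an interval of -0.67 to 0.08. Slc1a3 had 231 copies (68.2 TPM) and 193 copies (58.4 TPM), a log2 ratio of -0.22 with an interval of -0.51 to 0.06. Both intervals reach from a loss to slightly above 0, and neither gene passed the test, with adjusted p of 0.398 and 0.414 (Fisher's exact test, Benjamini-Hochberg). The site 1 tag of Fabp7 had 127 and 105 copies and that of Slc1a3 had 140 and 119. For Fabp7 the site 2 tag had 11 and 5 copies, and without site 1 its log2 ratio was -1.10 on those few copies. For Slc1a3 the tags at sites 3 and 4 had 19 and 20, and 39 and 32 copies, so the small difference of Slc1a3 lay mainly at site 1 and site 4.

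The effectors of the Notch pathway had few copies. Hes1, the repressor that holds progenitors back from differentiation, had 52 copies (15.4 TPM) in the control library and 29 copies (8.78 TPM) in the RNAi library. Its log2 ratio of -0.81, with an interval of -1.51 to -0.12, was the lowest of the 10. The unadjusted p was 0.0194 and the adjusted p 0.0954 (Fisher's exact test, Benjamini-Hochberg), so the ratio threshold was passed and the p threshold was not. Almost all of its copies lay on the site 1 tag, with 48 and 29 copies, and the log2 ratio of Hes1 stayed between -0.91 and -0.69 over the alternatives that gave it a value.

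Hes5, the effector most tied to Notch activity in the embryonic brain, had 22 copies (6.50 TPM) in the control library and 15 copies (4.54 TPM) in the RNAi library. The log2 ratio was -0.52, with an interval of -1.57 to 0.50, and the adjusted p was 0.587 (Fisher's exact test, Benjamini-Hochberg). Its tag at site 2 had 17 and 8 copies and its tag at site 1 had 5 and 7, so the 2 tags of Hes5 went opposite ways on very few copies.

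Notch1 had 48 copies (14.2 TPM) in the control library and 30 copies (9.08 TPM) in the RNAi library, a log2 ratio of -0.64 with an interval of -1.35 to 0.05 and an adjusted p of 0.234 (Fisher's exact test, Benjamini-Hochberg). Its copies were spread over 12 tags, of which the deepest were at site 7 (11 and 9 copies) and site 5 (11 and 4 copies). Notch1 thus passed the ratio threshold alone, and it fell short of that too with TMM (-0.55) or DESeq2 factors (-0.56), with a copy added back for tags listed in 1 library (-0.55) and by its deepest tag alone (-0.25).

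Dll1, the ligand that newborn neurons present to neighbouring radial glia, had 4 copies (1.18 TPM) in the control library and 10 copies (3.03 TPM) in the RNAi library. The log2 ratio of 1.36 had an interval of -0.44 to 3.48, and the adjusted p was 0.321 (Fisher's exact test, Benjamini-Hochberg). Dll1 in the control library was 1 copy above the 3 copies to which an absent gene is limited, and the interval covers a loss as well as a gain of several fold. With a copy added back wherever a tag was listed in 1 library only, the log2 ratio was 0.91.

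**Figure D3:**
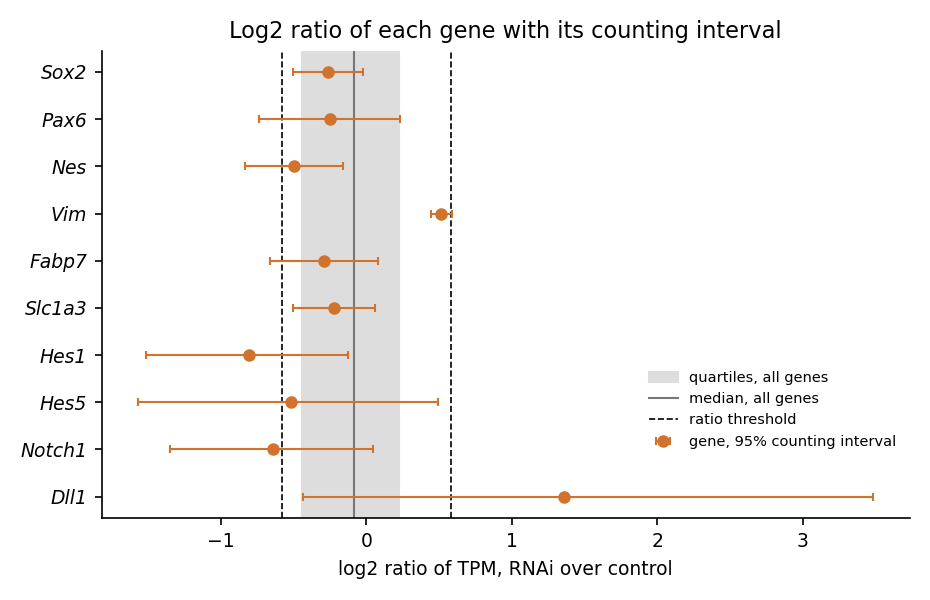
Log2 ratio of TPM, RNAi over control, for the 10 genes (points) with 95% counting intervals (bars); the grey band spans the quartiles of all genes (-0.44 to 0.23), the grey line is their median and the dashed lines are the ratio thresholds of -0.58 and 0.58. The intervals of Sox2, Nes, Vim and Hes1 leave out 0, those of the other 6 genes hold it, and Hes1, Notch1 and Dll1 have points past a threshold. Intervals that leave out 0 were not counted over all genes, of which 26.5% had an unadjusted p under 0.05 in Fisher's exact test.

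The share of copies at site 1 was higher in the RNAi library for 9 of the 10 genes and equal for Dll1, and it was higher for 4004 and lower for 3227 of the 8899 genes listed in both libraries. It went from 26.5% to 37.6% for Nes, from 72.3% to 89.7% for Pax6 and from 22.7% to 46.7% for Hes5. It moved less for Sox2 (60.9% to 65%), Fabp7 (92.0% to 95.5%), Slc1a3 (60.6% to 61.7%) and Notch1 (12.5% to 13.3%), and Hes1 went from 92.3% to 100%. The tags of 1 gene come from the same RNA and are not replicates, and for Hes5, Notch1 and Hes1 these shares rest on 15 to 52 copies a library. The part of the site 1 shares in the log2 ratios of the 10 genes was read only through the settings without site 1 given above, in which Nes and Pax6 were lower by more and Vim was nearly level.

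The promoters of Hes1 and Hes5 are printed because these are the 2 genes taken as Notch effectors among the 10. The strings are 60 bases of the RefSeq promoter windows on build GRCr8, written on the transcript strand, with each match to TGGGAA, the core of the Rbpj binding motif, in capitals. The Hes1 stretch is chr11:84213136-84213195 on the minus strand, from -150 to -91 of the start. The Hes5 stretch is chr5:170804457-170804516 on the plus strand, from -120 to -61.
Hes1 promoter: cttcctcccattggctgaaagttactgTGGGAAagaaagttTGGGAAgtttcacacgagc
Hes5 promoter: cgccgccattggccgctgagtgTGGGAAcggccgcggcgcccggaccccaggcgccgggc
Hes1 held 2 matches on the same strand with 8 bases between them, and Hes5 held 1 in this stretch and 1 on the other strand at -242. Searched on both strands of the windows from 250 bases before to 50 after the start, TGGGAA was found in 5 of the 10 genes (Pax6, Slc1a3, Hes1, Hes5 and Dll1) and in 25.7% of all 33469 windows. The longer string GTGGGAA, which contains it, was found in 4 of the 10 and in 6.29% of all windows. The 10 genes were counted by gene, with a match in any window, and the background by window, 33469 windows of 27457 genes. These shares are therefore not like for like. These matches are strings of letters, so binding sites of Rbpj that differ from TGGGAA are not marked, and no binding was measured here.

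The rest of the Notch pathway was read from lists drawn up by known role. The ligand list and the receptor list hold Dll1 and Notch1, and the list of targets holds Hes1 and Hes5. Of 7 ligands 5 were listed and none was called: Dll3 had 24 and 29 copies, Jag1 22 and 15, and Dlk1 11 and 19. All 4 receptors were listed and none was called, Notch4 with 14 and 12 copies and Notch3 with 3 and 0. The ligands listed in both libraries had a median log2 ratio of 0.57 and the receptors one of -0.41, against -0.09 over all genes, each on 4 genes or fewer. Among the Hes and Hey targets 4 of 9 were listed and none was called, with 5 copies of Heyl in each library.

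Of 9 nuclear partners of the receptor 3 were listed, none was called, and their median log2 ratio was -0.10. Rbpj had 96 and 102 copies, a log2 ratio of 0.12 with an interval of -0.29 to 0.54. Kat2a, a histone acetyltransferase gene, had 113 and 103 copies, and Snw1, a transcriptional coregulator gene, had 45 and 32. Each of the 3 intervals held 0. None of the 14 listed genes of receptor processing and regulation, out of 22, was called, and their median log2 ratio was 0.02. The 3 deepest of them were Ncstn and Aph1a, both parts of the gamma-secretase that frees the receptor's intracellular part, with 201 and 231, and 194 and 190 copies, and Dtx3 of the Deltex family, with 190 and 146 copies.

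Other genes of radial glia lay on both sides of 0. Of 40 such genes 30 were listed, with 2 called lower, 1 called higher and a median log2 ratio of -0.00. Cdh2, the N-cadherin of the ventricular junctions, had 1064 and 680 copies, a log2 ratio of -0.61 with an adjusted p of 4.40e-15 (Fisher's exact test, Benjamini-Hochberg), and its 8 tags of 20 copies or more were all lower. The log2 ratio of Cdh2 was short of the threshold with TMM factors (-0.52) and after a correction for the end of the tag (-0.45). Its call was also lost in edgeR's exact test at an assumed coefficient of variation of 0.1. Ptn, which encodes the secreted growth factor pleiotrophin, had 493 and 258 copies, a log2 ratio of -0.90, with 5 of its 6 such tags lower. Mt3, a metallothionein gene, had 114 and 370 copies, a log2 ratio of 1.73. Every copy of Mt3 lay on tags that end in 8 or more A, and after a correction for the end of the tag its log2 ratio was 0.18.

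Genes of dividing cells and of the next stage of the lineage were read beside the 10, because in a mixed culture fewer cells of a type and less RNA per cell cannot be told apart. Of 18 proliferation genes 15 were listed, 12 with a lower and 3 with a higher TPM in the RNAi library, and the median log2 ratio was -0.29. Pcna, the clamp of DNA polymerase, was called lower with 719 and 451 copies, a log2 ratio of -0.64 that became -0.54 with TMM factors. The call of Pcna was lost there and in edgeR's exact test at an assumed coefficient of variation of 0.1. Ccnd1, which encodes cyclin D1, was called higher with 74 and 131 copies, but 51.7% of its copies lay on tags ending in 8 or more A, and its log2 ratio was -0.11 without them. The median of the proliferation genes was close to that of the 10 genes, and whether the share of progenitor cells had a part in either was not tested. Of 12 genes of intermediate progenitors 8 were listed. Those in both libraries had a median log2 ratio of -0.07, with 4 below 0 and 3 above, and none of them was called. Neurog1, a proneural transcription factor gene that Hes proteins repress, was called higher with no copies in the control library and 9 in the RNAi library. By TPM, its 9 copies were 3.07 times the limit of 3 copies in the control library. That is not a lower bound, since the counting interval of the log2 ratio began lower, at 1.02. The call was lost with a copy added back (Fisher's exact test, Benjamini-Hochberg adjusted p = 0.163, against 0.0133). It was also lost with each assumed coefficient of variation, by the most copied tag and without site 1 tags. The stricter adjusted p threshold and a minimum of 10 copies over both libraries removed it too.

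The labels call the cells neurons, and markers of other cell types were listed beside those of neurons. All 16 neuron markers were listed, at 4967 TPM summed in the control library and 4435 TPM in the RNAi library, with 3 called lower (Snap25 with 918 and 545 copies, Elavl3 with 125 and 75, Map2 with 24 and 8), none higher and a median log2 ratio of -0.36. The list went both ways, with 10 genes below 0 and 5 above, and Gap43 (2670 and 3541 copies) and Neurod2 (570 and 777 copies), named after their values were seen, were higher in the RNAi library and short of the ratio threshold. The call of Map2 was lost with TMM or DESeq2 factors, with a copy added to every gene and by its most copied tag, and that of Snap25 after the correction for the tag end (log2 ratio -0.55). That of Elavl3 was lost by its most copied tag. All 3 calls were lost without site 1 tags and in edgeR's exact test at an assumed coefficient of variation of 0.1. The lower sum of the neuron markers lay largely in Stmn2, the one with the most copies, which had 2210 and 1719 TPM. The sum of the 10 genes was lower in the RNAi library only without Vim (319 and 254 TPM), and higher with it (1108 and 1382 TPM). Fibroblast and meningeal markers were all 8 listed, at 665 and 612 TPM, with none called (Col1a1 with 1254 and 1143 copies, Col3a1 with 379 and 355, Fn1 with 321 and 220). Astrocyte markers, 6 of 8 listed, stood at 280 and 295 TPM with none called (Aldoc with 359 and 407 copies, Gja1 with 315 and 336, Clu with 206 and 159). Aldoc is also in the list of other radial glia genes, and Gfap had 37 and 40 copies. Microglia markers, 6 of 8 listed, stood at 29.2 and 33.0 TPM with none called (Tyrobp with 32 and 33 copies, Csf1r with 29 and 23, Aif1 with 19 and 30). All 7 oligodendrocyte lineage markers were listed, at 8.57 and 6.96 TPM with none called (Olig1 with 6 copies in each, Mbp with 7 and 4, Pdgfra with 2 and 9). Of 6 endothelial markers only Flt1 was listed, with 2 copies in the RNAi library.

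**Figure D4:**
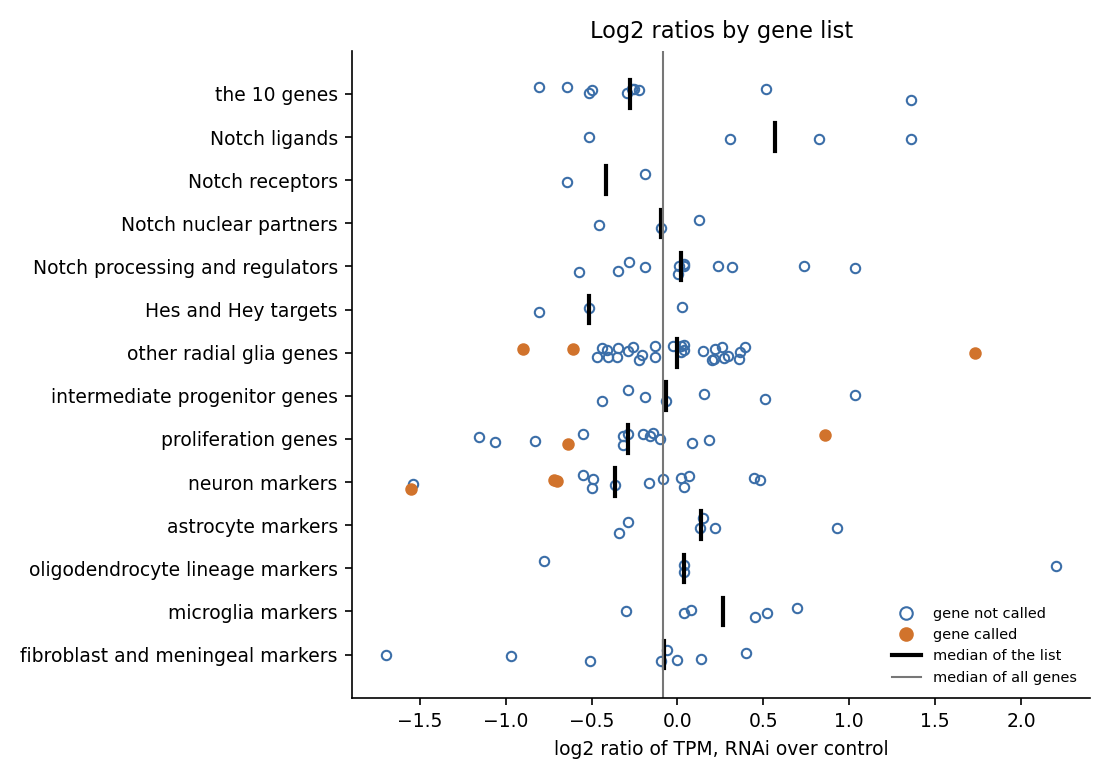
Log2 ratio of TPM, RNAi over control, of each gene listed in both libraries, by list; filled points are called genes, open points are not called, thick bars are list medians and the grey line is the median of all genes. The 10 genes have 8 points below 0 and a median of -0.28, near the medians of the proliferation genes (-0.29) and neuron markers (-0.36), and the other radial glia genes lie on both sides of 0.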

How the data were processed

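Tags of cultured rat cortical cells were counted in 2 libraries, 1 per group. The deposited tables give, per RefSeq transcript, the tag count and the TPM that the authors computed per 1000000 clean tags, with each tag, its site number and its copy number. The submitters' processing notes name build rn4, and the matching program and its mismatch limit are not given in the sources used here. Symbols were taken from RefSeq tables for 9331 of 9894 identifiers. The 10 genes and all lists were chosen with earlier results of these data known. The result for 1 listed gene is not reported here. Of each list, the called genes were named, and otherwise up to 3 with the most copies. Counts were compared by Fisher's exact test, two-sided, against all other copies on genes, with Benjamini-Hochberg adjustment over all genes. The thresholds on adjusted p and ratio follow the study. Log2 ratios used the deposited TPM, and intervals were exact (Clopper-Pearson, 95%). The depth was 1947600 and 1865913 copies on genes, 57.5% and 56.5% of clean tags. The 14 alternatives included TMM factors and the exact test of edgeR 4.0.16 with an assumed coefficient of variation, size factors of DESeq2 1.42.0, other thresholds and totals, and a correction of copies by the last bases of the tag. Another 2, leaving out site 1 tags and leaving out tags listed out of alphabetical order, were chosen after seeing the data. Of those 6163 tags, 5700 differed by 1 base from another tag of the same site and 461 had no other tag of their site, and how the deposited tables came to list them so is not given. Python 3.11.15, SciPy 1.17.1 and R 4.3.3 were used. The test was checked on simulated data that held counting error only, so the check does not cover spread between libraries.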

Additional observations from a re-analysis of the deposited data

How the results depend on the processing

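No paired analysis was possible because each group had 1 library, and for the same reason no library could be left out. The count of the 10 genes called was 0 lower and 0 higher except that 1, Vim, was called higher with TMM factors or DESeq2 size factors, and 1, Nes, was called lower with site 1 tags left out. The direction of the 10 genes held in every setting but 1, the log2 ratio of Nes by its most copied tag alone (0.0056). Over all genes, 591 were called lower and 293 higher. With an assumed coefficient of variation in edgeR's exact test the counts were 170 and 114 at 0.1, 2 and 15 at 0.2, and 0 and 0 at 0.4. They were 374 and 182 after correction for the tag end, 262 and 146 at a log2 ratio of 1, 257 and 163 at an adjusted p of 0.001, and 281 and 84 without site 1 tags. With TMM factors they were 459 and 398 and with DESeq2 size factors 475 and 382, so the excess of lower calls depends on the scaling. Log2 ratios that changed sign were those of Col3a1 with TMM (0.036) and DESeq2 factors (0.027), Ccnd1 without tags ending in 8 or more A (-0.11) and without site 1 tags (-0.11), Aph1a after the tag end correction (-0.099) and without site 1 tags (-0.21), Tyrobp after that correction (-0.0084), Jag1 (0.17), Kat2a (0.036) and Rbpj (-0.12) by their most copied tag, and Ncstn (-0.090) and Gja1 (-0.17) without site 1 tags. The causes were not tested. The counting depth limits Hes5, Notch1 and Dll1 most, since each had under 50 copies in either library.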
